A study of Oryctolagus cuniculus with 24 samples.

Results

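Ion channels are membrane proteins that let sodium, potassium, calcium, chloride and other ions pass down their gradients. The genes described here are those of the deposited count table whose names begin with KCN, CACN or CLCN, with SCN, ANO or HCN and a digit, with TRPC, TRPM or TRPV and a digit, or with PIEZO, and whose mean level reached 0.5 CPM (the count scaled to the total of the library) in at least 1 of 3 culture conditions. Of 23428 genes in the table, 164 have such a name and 86 reached that level. The level is a measured value, so the membership itself is no result: 48 members reached it in all 3 conditions, 16 in 2 conditions and 22 in 1 condition only, and a member that reached it in 1 condition only had to differ between conditions. Those 22 comprised 3 members with TGF-β1, 6 with FBS and 13 in serum-free medium. Among those with values given below are TRPM8 and ANO4 (TGF-β1) and KCNK12 and TRPV4 (FBS). Others are KCNJ6, KCNIP1, KCNIP2, CACNA2D3, CACNA1D and ANO5 (serum-free medium). For each of them the rule set which condition had the highest mean, so their tests describe a difference that was already chosen. Just above the threshold, the highest condition mean was 0.557 CPM for KCNS1, 0.574 CPM for CACNA1B and 0.587 CPM for SCN2B. Just below it, KCNK4 had 0.499 CPM and KCNQ1 0.464 CPM, and 18 of the 78 genes left out had no count in any library. One name match, TRPC4AP, is an adaptor that binds TRPC channels and not a channel itself. CACNA1A stands in the table at 2 places on unplaced scaffolds, Un0287 and Un0816, which are given separately here. PIEZO1 is not analysed here.

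The cells were first-passage primary keratocytes of the rabbit cornea, kept for 6 days on glass coated with collagen. In the TGF-β1 condition, which the labels call myofibroblast, 5 ng/mL TGF-β1 was in the serum-free medium from day 1. In the FBS condition, called fibroblast, serum-free medium was replaced on day 3 by DMEM with 10% fetal bovine serum. In the third condition, called keratocyte, the cells stayed in serum-free medium throughout. Each condition has 8 libraries of bulk RNA sequencing. TGF-β1 was added to the medium of the serum-free cells, whereas the effects of serum, of DMEM and of the later start cannot be told apart in the FBS condition.

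Keratocytes are the resident cells of the corneal stroma, and TGF-β1 and serum are the standard agents that turn them into contractile myofibroblasts and into dividing fibroblasts. Potassium channels set the resting voltage of such cells, voltage-gated and TRP channels admit calcium, PIEZO channels open under membrane tension, and chloride channels and anoctamins take part in volume control and lipid scrambling. Most voltage-gated channels consist of a pore subunit and smaller auxiliary subunits, encoded by separate genes, that set where and how the pore opens.

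Library totals were 15410285 to 20911192 counts with TGF-β1, 15659561 to 22528261 counts with FBS and 17151397 to 21540864 counts in serum-free medium, and a count of 3 in 1 library corresponds to between 0.115 and 0.219 CPM on the scaled (TMM) library sizes used from here on. All members together took 0.118% ± 0.00678 of the counts with TGF-β1, 0.139% ± 0.0128 with FBS and 0.184% ± 0.0147 in serum-free medium (SD, n = 8 each). In the labels, libraries carry the numbers 5 to 8 (replicates 1 to 4 here, called library set 1) and 9 to 12 (replicates 5 to 8, library set 2). The sets stood apart with TGF-β1 and in serum-free medium. The labels do not say what the numbers mean. With FBS, replicates 1 to 4 lay close together, while replicates 5 and 6 stood apart from them and from replicates 7 and 8. Library set 2 was thus not a single group with FBS. The labels name no separate animals or cultures for the replicates, so p-values measure the spread between libraries, which may be technical. In bulk RNA, fewer cells of a type and less RNA per cell cannot be told apart.

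Since many members are best known from neurons and glia, marker genes of other cell types were read beside them. Of 9 neuronal markers in the table, STMN2 had no count in any library and SNAP25 had none with TGF-β1 or in serum-free medium, while the list summed to 3.12 to 5.92 CPM with TGF-β1, 18.4 to 29.0 CPM with FBS (mostly TUBB3) and 1.43 to 4.62 CPM in serum-free medium. The 12 markers of Schwann cells, glia and melanocytes summed to 15.4 to 27.7 CPM with TGF-β1, 13.2 to 17.7 CPM with FBS and 31.0 to 57.2 CPM in serum-free medium. Of the 9 tested ones, 6 were lower and 1 was higher with TGF-β1, and 8 were lower and 1 was higher with FBS, each against serum-free medium. The 6 markers of vascular endothelium summed to 52.2 to 114 CPM with TGF-β1, 13.9 to 19.0 CPM with FBS and 247 to 368 CPM in serum-free medium. KDR made up most of that sum, with means of 72.9, 13.5 and 305 CPM in the same order. The 3 tested ones, KDR, CDH5 and VWF, were lower with both agents. PECAM1, a defining marker, averaged 0.283, 0.679 and 0.0652 CPM and so was lowest in serum-free medium. The sums of the glial and vascular lists, unlike that of the neuronal list, were thus highest in serum-free medium, as were many members. The part of the glial and vascular markers in those results was not tested. Of the other lists, that of immune cells summed higher with both agents than in serum-free medium. That of corneal endothelium summed higher with TGF-β1 and lower with FBS. The 8 immune cell markers summed to 250.5 to 368 CPM with TGF-β1, 149 to 227 CPM with FBS and 6.62 to 11.3 CPM in serum-free medium. LAPTM5 made up most of that sum in the treated conditions (305 ± 50.2 CPM with TGF-β1, 171 ± 25.1 CPM with FBS and 4.01 ± 1.10 CPM in serum-free medium; SD, n = 8 each), and PTPRC, a defining marker, stayed at or under 0.353 CPM in every library. The 6 corneal endothelium markers summed to 6110 to 9529 CPM with TGF-β1, 1406 to 1569 CPM with FBS and 1611 to 2121 CPM in serum-free medium, mostly COL8A1 and COL8A2, and ZP4 had no count in any library. The part of these lists in the results for members higher in treated cells was not tested. Among epithelial markers, KRT12 had no count in any library and the list stayed at or under 6.06 CPM. The 6 keratocyte markers in the table summed to 8110 to 13800 CPM with TGF-β1, 1786 to 3196 CPM with FBS and 41440 to 68780 CPM in serum-free medium, so the labelled cell type has its markers.

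Per length, the members were led by few genes. FPKM (the deposited unit, which divides by gene length and library size and so compares levels between genes) put TRPC4AP first with TGF-β1 at 80.0 ± 2.69 FPKM, followed by ANO6, a calcium-activated lipid scramblase and channel, at 42.4 ± 1.99 FPKM. With FBS, ANO6 stood first at 88.5 ± 9.77 FPKM, above every TRPC4AP value of that condition (55.0 ± 2.90 FPKM). In serum-free medium, TRPC4AP at 75.9 ± 2.56 FPKM overlapped the next gene, SCN9A, at 71.5 ± 19.0 FPKM, and CACNA2D1 followed at 43.9 ± 8.77 FPKM (all SD, n = 8). SCN9A encodes the pore of the voltage-gated sodium channel Nav1.7 and CACNA2D1 an extracellular subunit of voltage-gated calcium channels. Below these, with TGF-β1, CACNA2D1 at 23.1 ± 5.29 FPKM, the lysosomal exchanger CLCN6 at 21.7 ± 2.60 FPKM and the channel kinase TRPM7 at 20.7 ± 2.57 FPKM overlapped each other.

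**Figure D1:**
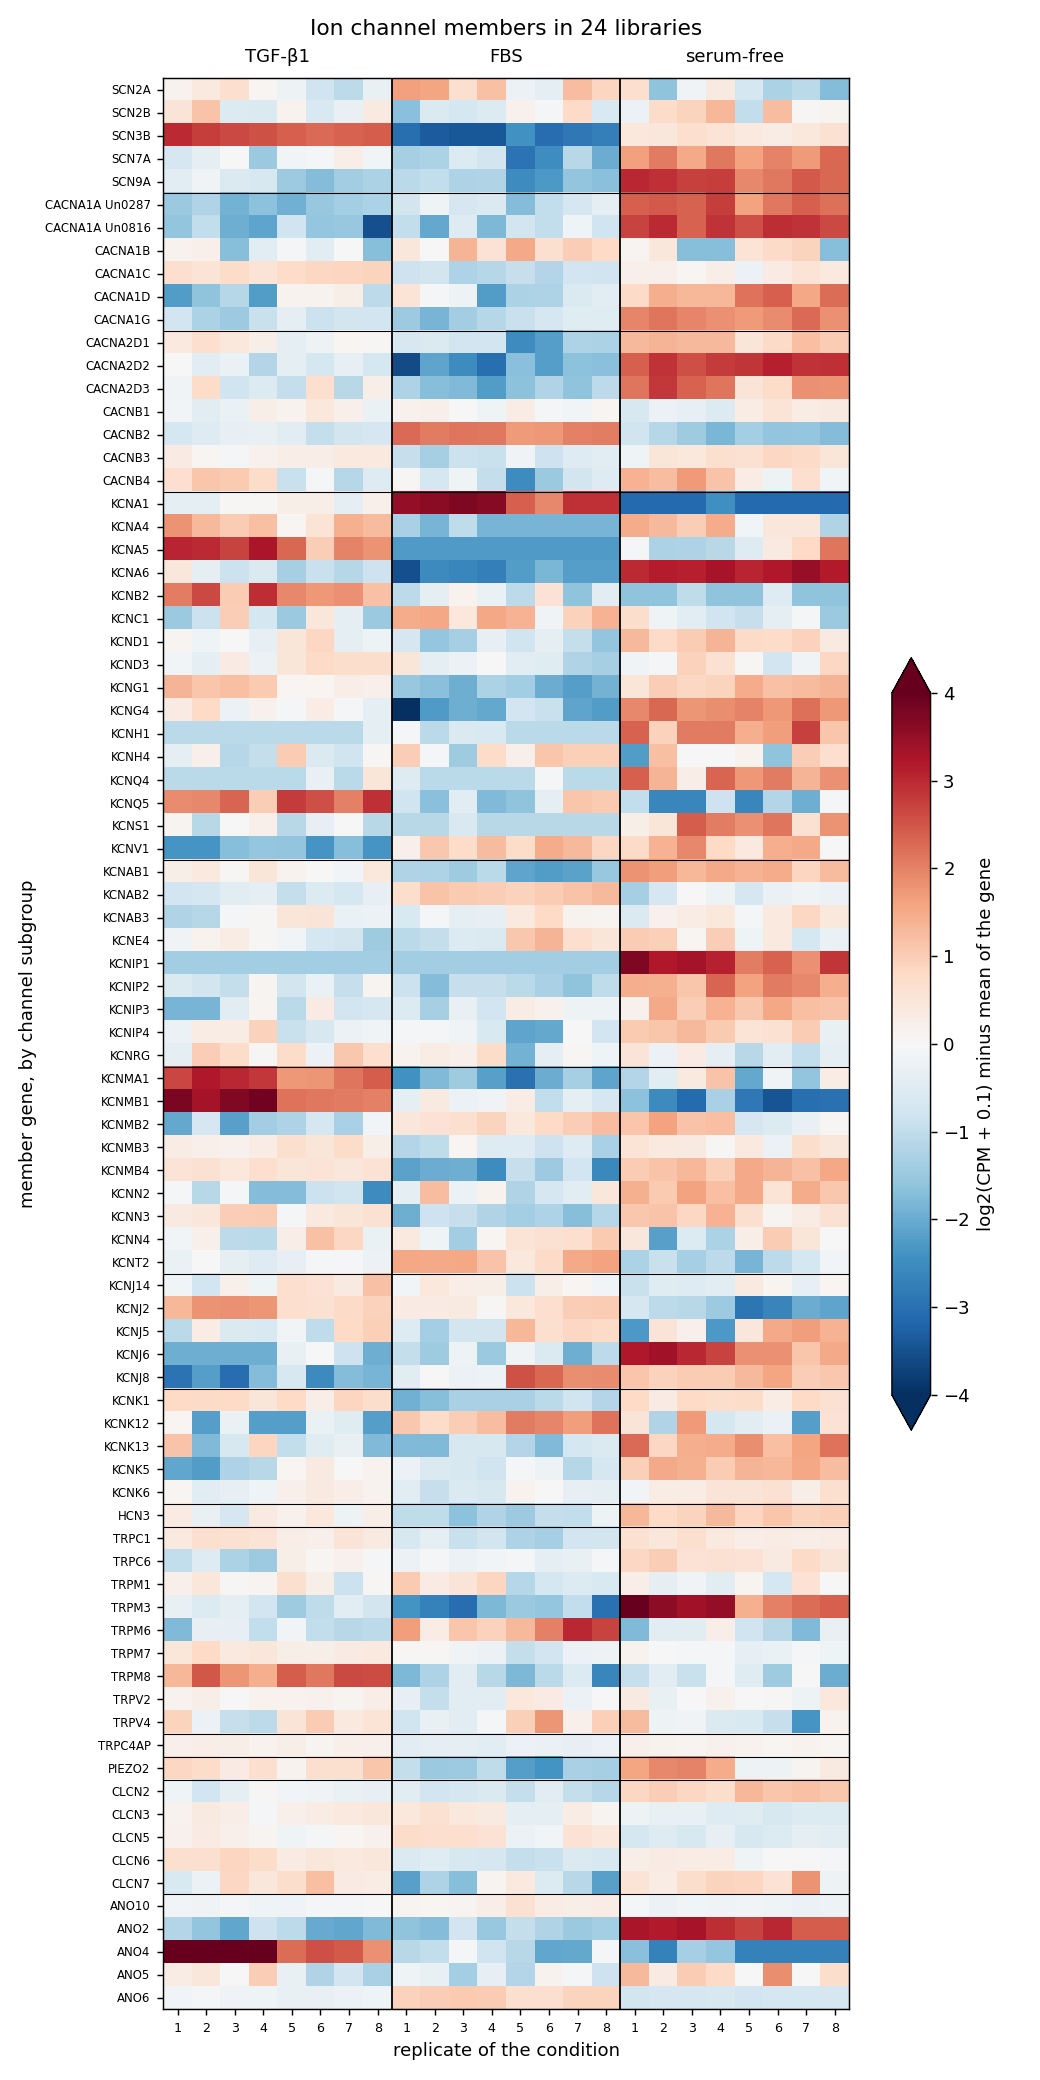
Level of 84 members in each of the 24 libraries, as log2(CPM + 0.1) minus the mean of that gene over all libraries, with members grouped by channel subgroup and libraries by condition. Red marks libraries above the mean of the gene and blue those below. More members are reddest in the serum-free columns than in those of either other condition, while KCNA5, KCNMA1, KCNMB1 and ANO4 are red with TGF-β1 and KCNA1, CACNB2 and KCNT2 with FBS.

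Of the 86 members, 77 passed the filter on low counts and were tested, together with all other genes, by edgeR's quasi-likelihood test at an adjusted p of 0.05. A member was called higher or lower only in that test. Most of the 13308 tested genes were called, so the counts are given with the share of all tested genes. With TGF-β1 against serum-free medium, 20 tested members were higher (26.0%, against 31.2% of all genes) and 32 were lower (41.6%, against 33.1%). Their median log2 fold change was -0.38, against -0.03 over all genes. Libraries of both conditions did not overlap for 38 of the 77 (49.4%, against 33.9%).

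With FBS against serum-free medium, 15 tested members were higher (19.5%, against 39.5% of all genes) and 45 were lower (58.4%, against 40.5%). The median was -1.18, against -0.04 over all genes, and libraries did not overlap for 44 members (57.1%, against 52.9%). With TGF-β1 against FBS, 40 were higher (51.9%, against 36.9%) and 16 were lower (20.8%, against 36.4%), with a median of 0.54 against 0.01 over all genes. In either direction, 64.3%, 80.0% and 73.3% of all genes were called in these 3 comparisons, and 52, 60 and 56 members. Here libraries did not overlap for 34 members (44.2%, against 46.2%). The counts with TGF-β1 against FBS moved with the scaling, for members and for all genes: with total library size in place of TMM, 31 members were higher (40.3%, against 23.5% of all genes) and 22 lower (28.6%, against 51.2%), and the median over all genes was -0.39. Under either scaling, the share higher was larger among members than among all genes, and the share lower was smaller. All medians were the same with members at 0 counts in a whole condition set to their lower bound.

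These counts describe the members and test nothing, because members were picked by level. Among the 48 members that reached the threshold in all 3 conditions, 12 were higher (25%, against 31.2% of all genes) and 17 lower (35.4%, against 33.1%) with TGF-β1 against serum-free medium, so the shares with TGF-β1 were near those of all genes. With FBS against serum-free medium, 9 of the 48 were higher (18.8%, against 39.5% of all genes) and 30 lower (62.5%, against 40.5%). Both comparisons use the same 8 serum-free libraries, so their calls are not independent. Against those libraries, 28 members were lower with both agents, 11 were higher with both, and 5 (CACNA1C, CLCN6, KCNA5, KCNMA1 and SCN3B) were higher with TGF-β1 and lower with FBS. No member was lower with TGF-β1 and higher with FBS, and 9 were called in neither comparison. Shares of all genes with these joint patterns were not computed, so they cannot be read as a trait of channels. By mean CPM, 24 members were highest with TGF-β1, 18 with FBS and 44 in serum-free medium. Every library of the highest condition lay above all 16 others for 9 of the 24, 7 of the 18 and 22 of the 44. Shares of all genes for these counts were not computed either, so the counts cannot be read as a trait of channels. For some of these members the rule set the highest condition, because they reached the threshold in that condition only. Examples are ANO4 and TRPM8 (TGF-β1) and KCNIP1, KCNIP2, KCNJ6, KCNS1 and CACNA1D (serum-free medium).

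**Figure D2:**
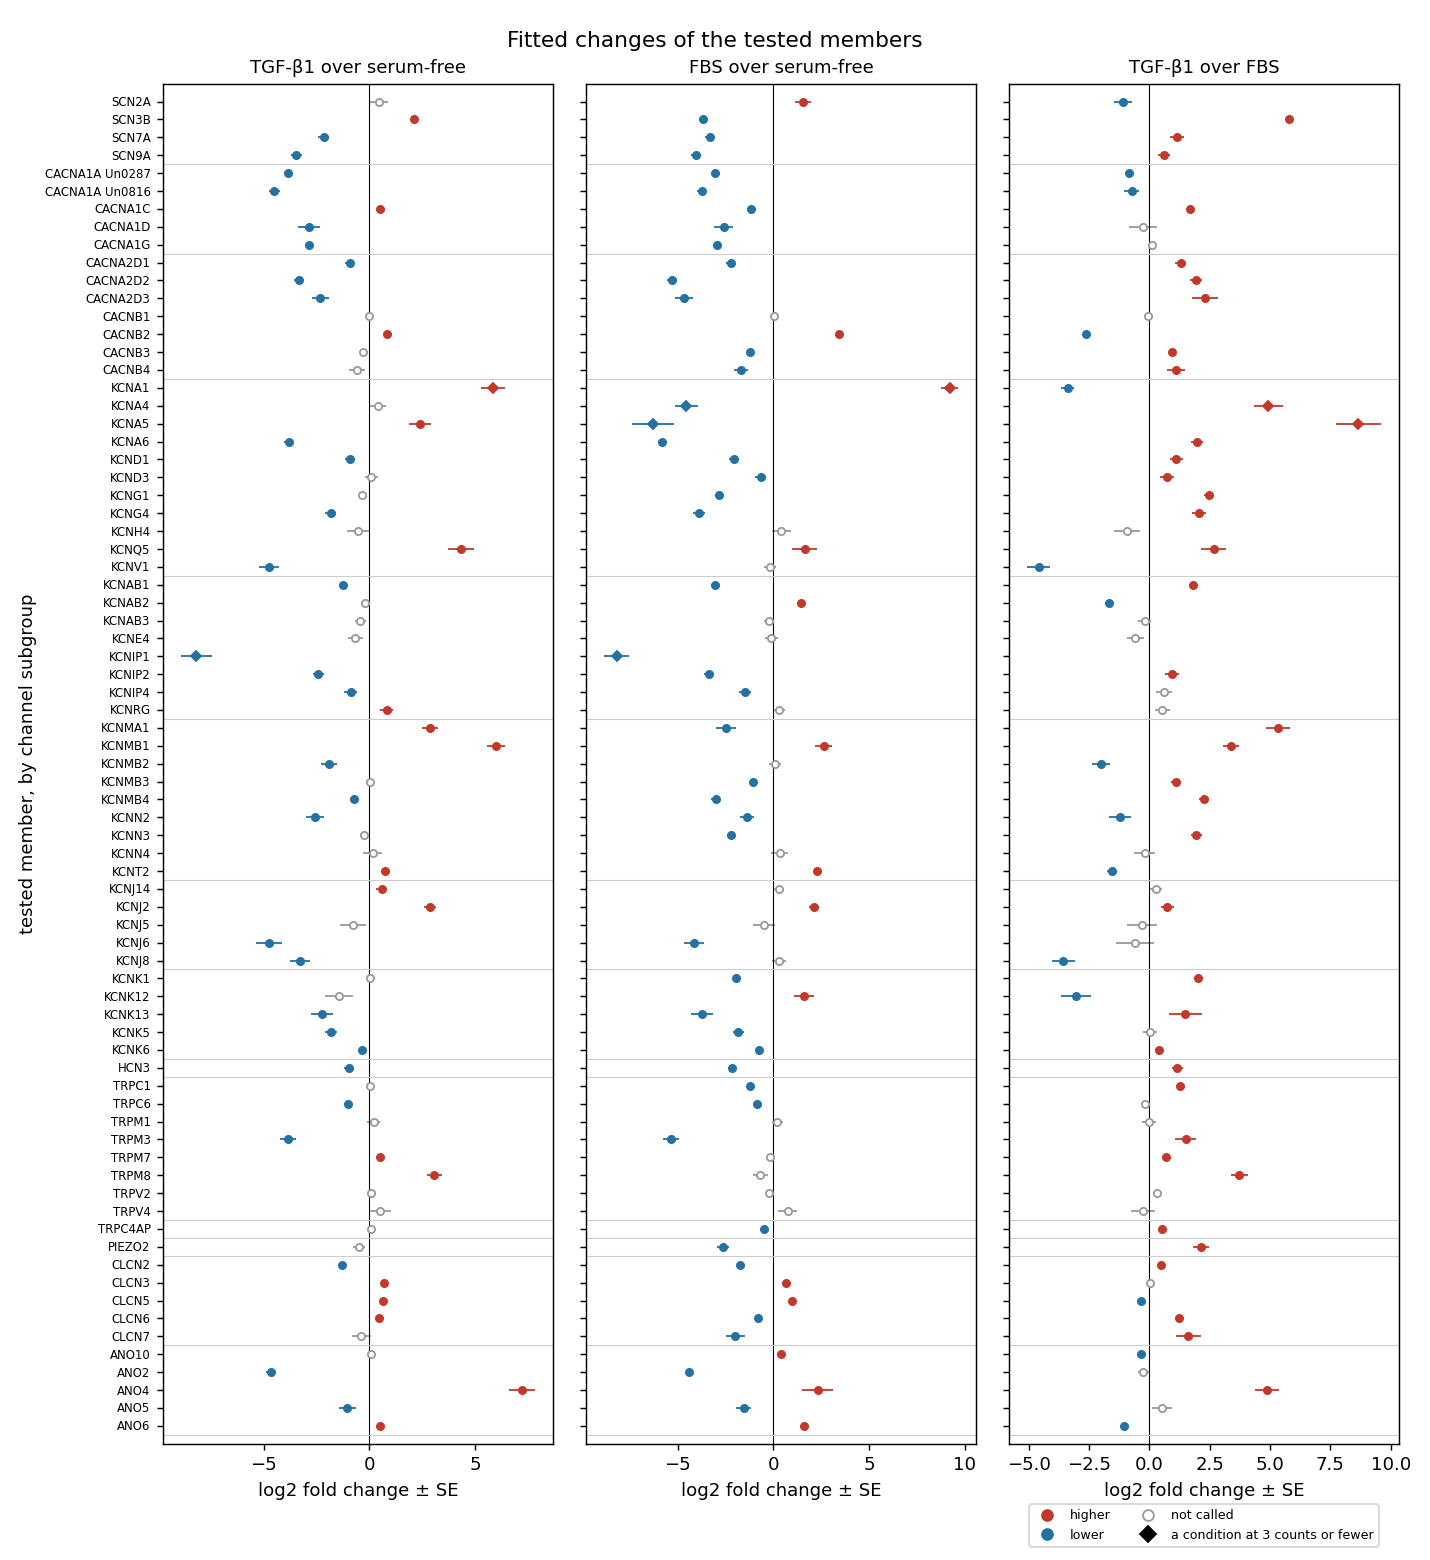
Fitted log2 fold change ± SE of 75 tested members in the 3 comparisons, red where higher, blue where lower and open where not called. Diamonds mark members with 3 counts or fewer in all libraries of a condition together, whose fitted value is no measured fold. KCNIP1 has no point for TGF-β1 over FBS since it had no count in either condition. More points lie left of 0 in the first pair of panels (31 and 45 of the members shown were lower) and right of 0 in the third (39 of them were higher).

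The sodium channel gene SCN9A changed in CPM by more than any other member. SCN9A had 26.3, 45.9 and 78.7 CPM with TGF-β1, 15.4, 33.3 and 43.9 CPM with FBS and 335, 533 and 705 CPM in serum-free medium (lowest, median and highest of 8 libraries, the order kept below). Every serum-free library lay above all libraries of the other conditions, by about an order of magnitude at the median. SCN9A was lower with TGF-β1 (log2 fold change -3.44, SE 0.25, edgeR adjusted p = 5.10e-12) and with FBS (log2 fold change -4.06, SE 0.26, edgeR adjusted p = 9.75e-14) than without either agent. SCN9A alone made up 3.51% ± 1.11 of all member counts with TGF-β1, 2.58% ± 0.736 with FBS and 27.1% ± 4.18 in serum-free medium (SD, n = 8 each). Between TGF-β1 and FBS its libraries overlapped, and the call there (log2 fold change 0.61, SE 0.23, edgeR adjusted p = 0.0203) was lost without FBS replicates 5 and 6 (0.40, adjusted p = 0.103).

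SCN9A lies on chromosome 7 of the table at 105662643 to 105768141, minus strand, next to SCN7A at 105877618 to 105974339 on the same strand. No source used here gives the build. SCN7A encodes Nax, a sodium-sensing relative of the voltage-gated pores, and had 1.53, 4.13 and 5.47 CPM with TGF-β1, 0.495, 1.76 and 3.06 CPM with FBS and 13.0, 16.4 and 22.4 CPM in serum-free medium. It too was highest in every serum-free library, and was lower with TGF-β1 (log2 fold change -2.15, SE 0.26, edgeR adjusted p = 7.57e-08) and with FBS (log2 fold change -3.30, SE 0.28, edgeR adjusted p = 2.74e-11). On the other side of SCN9A, at 105413099 to 105575588, stands a gene listed by number, LOC100009591, that the table describes as SCN1A, a neuronal sodium channel pore, and that the name pattern therefore missed. It had 0, 0.345 and 0.728 CPM with TGF-β1, 0, 0 and 0.179 CPM with FBS and 9.43, 15.9 and 22.2 CPM in serum-free medium, and was lower with TGF-β1 (log2 fold change -5.38, SE 0.35, edgeR adjusted p = 6.08e-13) and with FBS (log2 fold change -8.62, SE 0.46, edgeR adjusted p = 2.24e-15). LOC100009591 was picked by the same threshold of 0.5 CPM and reached it in serum-free medium only, so the pick set the direction of these changes. Its FBS libraries together held 6 counts. Further along, SCN2A at 104666169 to 104799437 on the plus strand, another neuronal pore gene, did not follow its neighbours. Its values were 0.346, 0.792 and 1.38 CPM with TGF-β1, 0.618, 1.79 and 2.81 CPM with FBS and 0.176, 0.404 and 1.38 CPM in serum-free medium, and it was higher with FBS (log2 fold change 1.55, SE 0.40, edgeR adjusted p = 9.11e-04), with libraries that overlapped. The change with TGF-β1 did not pass the test (log2 fold change 0.46, SE 0.42, edgeR adjusted p = 0.343).

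Auxiliary β subunits of sodium channels steer the pore to the membrane and act in cell adhesion. The β subunit gene SCN3B had 26.8, 30.9 and 43.9 CPM with TGF-β1, 0.422, 0.579 and 0.940 CPM with FBS and 6.76, 7.40 and 8.65 CPM in serum-free medium. The 3 conditions did not overlap: TGF-β1 libraries were highest, serum-free libraries in between and FBS libraries lowest. SCN3B was higher with TGF-β1 (log2 fold change 2.10, SE 0.12, edgeR adjusted p = 3.34e-14) and lower with FBS (log2 fold change -3.67, SE 0.15, edgeR adjusted p = 6.84e-18), each against serum-free medium. The gap between TGF-β1 and FBS was the largest among members with counts in every library of both conditions (log2 fold change 5.77, SE 0.15, edgeR adjusted p = 2.60e-21). SCN2B, at or under 1.10 CPM in every library, was not tested.

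The tested calcium channel pore genes were lower in both treated conditions with 1 exception. All 5 tested entries were lower with FBS (against 40.5% of all genes), and 4 of 5 were lower with TGF-β1 (against 33.1%), than in serum-free medium. CACNA1G, the pore of the low-voltage-activated T-type channel Cav3.1, had 4.25, 6.63 and 8.86 CPM with TGF-β1, 3.18, 5.77 and 8.46 CPM with FBS and 38.9, 44.6 and 57.2 CPM in serum-free medium. Serum-free libraries lay above all others, and both treated conditions overlapped each other. CACNA1G was lower with TGF-β1 (log2 fold change -2.84, SE 0.18, edgeR adjusted p = 1.81e-13) and with FBS (log2 fold change -2.95, SE 0.17, edgeR adjusted p = 2.27e-14). CACNA1A, the pore of the P/Q-type channel Cav2.1 of nerve terminals, had 2.62, 3.51 and 4.31 CPM with TGF-β1, 2.97, 6.26 and 9.0 CPM with FBS and 31.0, 52.6 and 68.7 CPM in serum-free medium at its longer entry, with no overlap between serum-free and treated libraries. The entry was lower with TGF-β1 (log2 fold change -3.86, SE 0.18, edgeR adjusted p = 9.69e-16) and with FBS (log2 fold change -3.02, SE 0.17, edgeR adjusted p = 1.04e-14), and the shorter entry likewise, at medians of 0.784, 1.32 and 18.0 CPM in the same order of conditions (-4.48 and -3.75). No source used here says whether these entries are parts of 1 gene.

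CACNA1C was the exception, with TGF-β1. It encodes the L-type pore Cav1.2, which carries calcium into smooth and cardiac muscle cells, and had 39.6, 44.9 and 50.6 CPM with TGF-β1, 11.3, 14.8 and 16.2 CPM with FBS and 23.2, 31.6 and 39.5 CPM in serum-free medium. None of the 3 conditions overlapped another: TGF-β1 libraries were highest and FBS libraries lowest. CACNA1C was higher with TGF-β1 (log2 fold change 0.50, SE 0.10, edgeR adjusted p = 7.29e-05) and lower with FBS (log2 fold change -1.18, SE 0.10, edgeR adjusted p = 3.04e-11), each against serum-free medium. CACNA1C held 79.2% ± 2.32 of the summed pore FPKM with TGF-β1, 47.3% ± 4.58 with FBS and 20.9% ± 2.24 in serum-free medium (the shorter CACNA1A entry left out). The sum itself was 8.29 ± 0.768 FPKM with TGF-β1, 4.33 ± 0.591 FPKM with FBS and 22.3 ± 3.15 FPKM in serum-free medium. CACNA1C overlaps DCP1B on the other strand, and no source used here says whether counting used strand. The last L-type gene tested, CACNA1D, stayed at or under 2.39 CPM and was lower with TGF-β1 (-2.85) and with FBS (-2.60). It reached the membership threshold in serum-free medium only, so the rule set this direction.

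Among auxiliary calcium channel subunits, the extracellular α2δ subunits, which raise the number of channels at the surface, were lower in both treated conditions. CACNA2D1 had 54.6, 79.7 and 114 CPM with TGF-β1, 12.3, 36.1 and 47.7 CPM with FBS and 99.7, 169.7 and 183 CPM in serum-free medium. Serum-free libraries lay above all FBS libraries and overlapped those with TGF-β1. The fall was larger with FBS (log2 fold change -2.23, SE 0.23, edgeR adjusted p = 1.14e-09) than with TGF-β1 (log2 fold change -0.93, SE 0.22, edgeR adjusted p = 6.05e-04), and between those conditions CACNA2D1 was higher with TGF-β1 (1.30, adjusted p = 8.27e-06). CACNA2D2 had 0.949, 1.70 and 2.28 CPM with TGF-β1, 0.0985, 0.430 and 0.655 CPM with FBS and 12.4, 17.3 and 20.4 CPM in serum-free medium, with no overlap between any of the conditions. It was lower with TGF-β1 (log2 fold change -3.35, SE 0.21, edgeR adjusted p = 2.02e-13) and with FBS (log2 fold change -5.29, SE 0.24, edgeR adjusted p = 6.19e-17). CACNA2D3, at or under 3.25 CPM, was lower with both as well (-2.31 and -4.64), and its FBS and serum-free libraries did not overlap. It reached the membership threshold in serum-free medium only, so the rule set this direction.

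The cytoplasmic β subunits, which bring the pore to the membrane, changed their proportions mainly with FBS, while the condition means of their sum lay close together. Their summed FPKM was 12.7 ± 1.08 FPKM with TGF-β1, 13.3 ± 1.10 FPKM with FBS and 14.4 ± 2.33 FPKM in serum-free medium. Single serum-free libraries ran from 9.84 to 17.6 FPKM. CACNB2 had 3.72, 4.82 and 5.91 CPM with TGF-β1, 23.8, 30.9 and 35.8 CPM with FBS and 2.01, 2.54 and 4.18 CPM in serum-free medium. FBS libraries lay far above all others, and TGF-β1 and serum-free libraries overlapped. It was higher with FBS (log2 fold change 3.45, SE 0.14, edgeR adjusted p = 9.41e-18) and, by less, with TGF-β1 (log2 fold change 0.84, SE 0.14, edgeR adjusted p = 8.56e-06). CACNB2 held 43.6% ± 6.20 of the summed FPKM with FBS, against 7.53% ± 1.67 with TGF-β1 and 3.87% ± 1.89 in serum-free medium. CACNB3 held 33.8% ± 6.94 with FBS, against 68.4% ± 3.7 with TGF-β1 and 73.7% ± 3.70 in serum-free medium. CACNB3 was lower with FBS (log2 fold change -1.24, SE 0.14, edgeR adjusted p = 1.03e-08). CACNB1 did not pass the test in any comparison over all libraries, with medians of 10.4, 10.6 and 10.6 CPM for TGF-β1, FBS and serum-free medium. Its change with FBS against serum-free medium differed between the library sets (edgeR adjusted p of the difference = 0.00837). In library set 1 alone it was called higher with FBS (0.50, edgeR adjusted p = 0.00656).

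**Figure D3:**
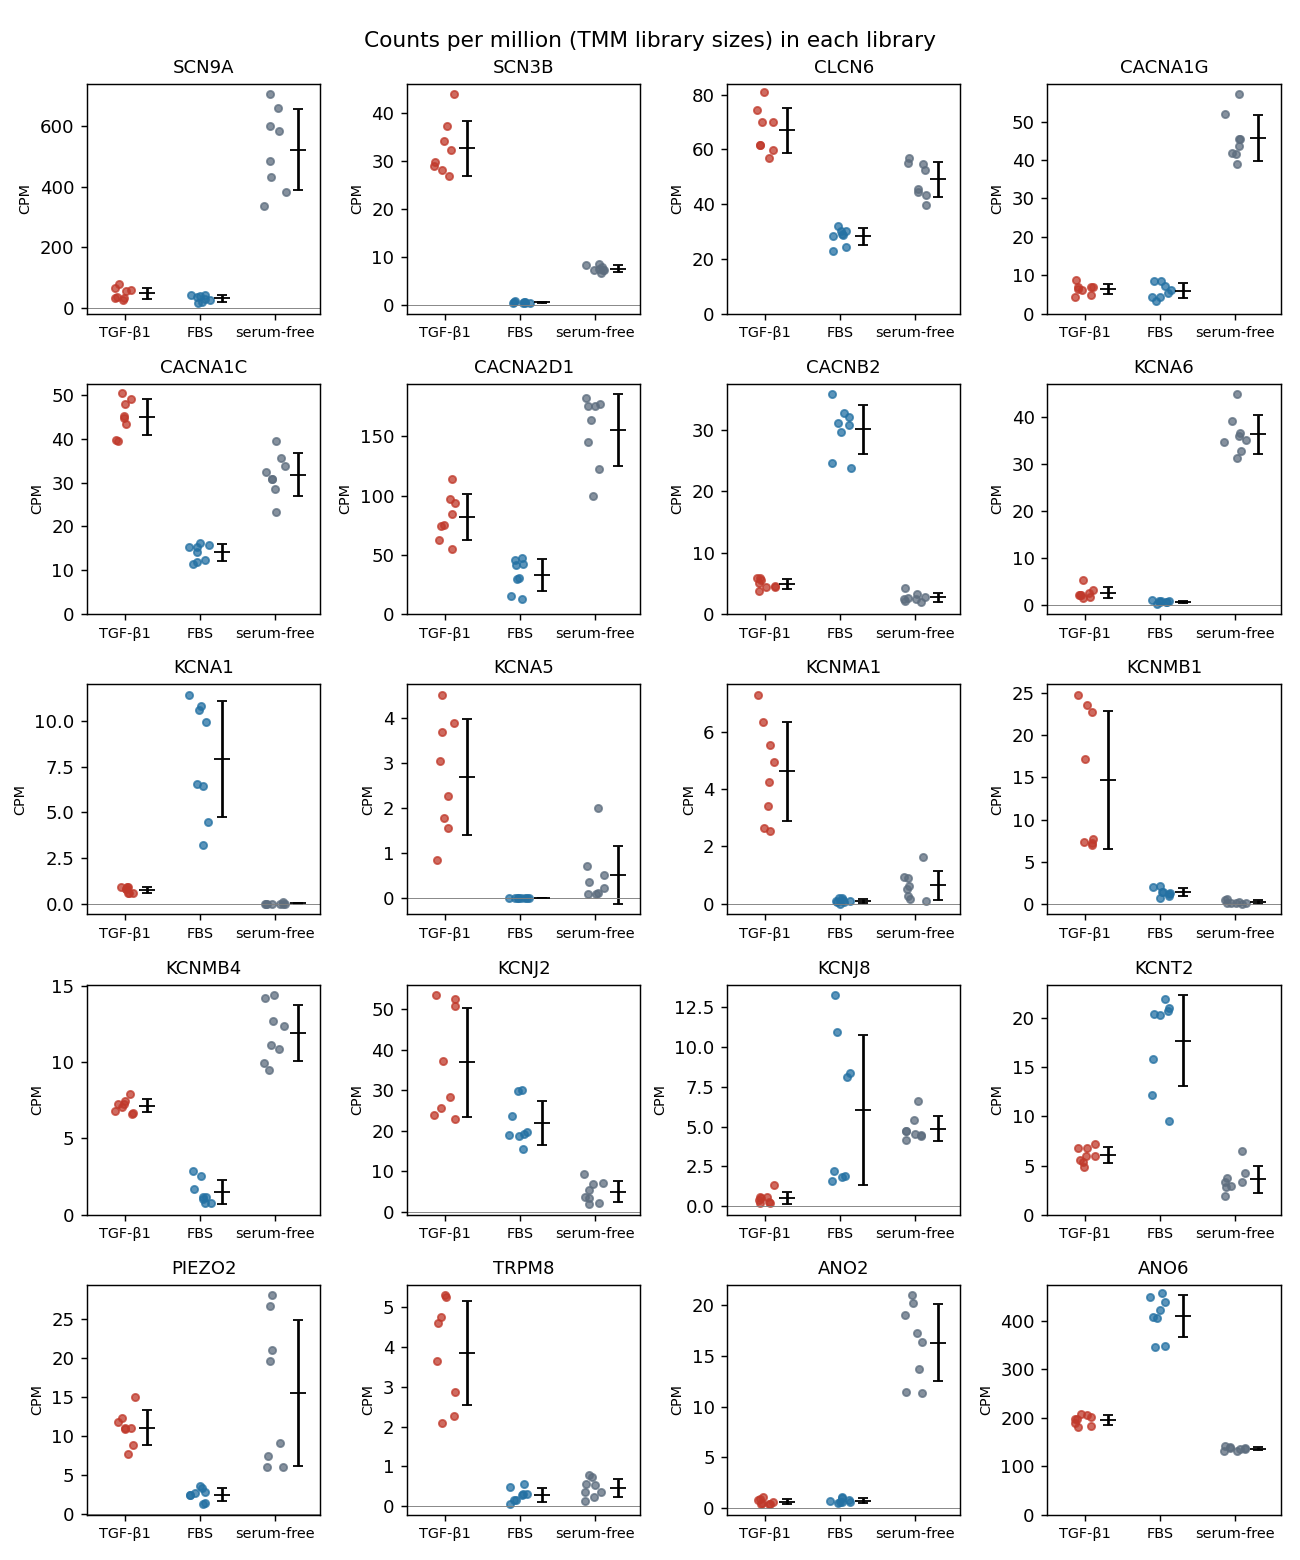
CPM (TMM library sizes, linear axes) of 20 members in each of 8 libraries per condition, with the mean and SD beside the points. SCN9A, CACNA1G, KCNA6 and ANO2 are highest in every serum-free library, SCN3B, CACNA1C, CLCN6, KCNMA1, KCNMB1 and TRPM8 in every TGF-β1 library, and CACNB2, KCNA1, KCNT2 and ANO6 in every FBS library.

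Voltage-gated potassium channels hold the largest subgroup, with 16 pore and silent subunit genes, of which 11 were tested. With TGF-β1 3 were higher (27.3%, against 31.2% of all genes) and 4 lower (36.4%, against 33.1%) than in serum-free medium, close to the shares of all genes. With FBS 2 were higher (18.2%, against 39.5%) and 7 lower (63.6%, against 40.5%). The Kv1 genes KCNA6, KCNA1 and KCNA5, which encode delayed rectifier pores, stand in this order within chromosome 8 at 30899889 to 31129953, all on the plus strand, and each was highest in a different condition by mean CPM. KCNA6 had 1.49, 2.13 and 5.33 CPM with TGF-β1, 0.246, 0.662 and 1.03 CPM with FBS and 31.3, 35.5 and 44.7 CPM in serum-free medium. Serum-free libraries stood far above the rest, and it was lower with TGF-β1 (log2 fold change -3.82, SE 0.20, edgeR adjusted p = 9.45e-15) and with FBS (log2 fold change -5.80, SE 0.23, edgeR adjusted p = 6.31e-18). KCNA1 had 0.560, 0.803 and 0.930 CPM with TGF-β1, 3.19, 8.24 and 11.4 CPM with FBS and 0, 0 and 0.0610 CPM in serum-free medium. No condition overlapped another here, with FBS libraries highest, and serum-free libraries held 1 count in all, so the ratio to them was 1217-fold with FBS (95% counting interval 218 to 48090) and 112-fold with TGF-β1 (19.6 to 4461). KCNA1 was lower with TGF-β1 than with FBS (log2 fold change -3.38, SE 0.27, edgeR adjusted p = 1.01e-11).

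KCNA5 had 0.859, 2.66 and 4.52 CPM with TGF-β1, 0, 0 and 0 CPM with FBS and 0.0999, 0.296 and 2.00 CPM in serum-free medium. It had no count in any FBS library, which makes it at least 158.9-fold higher with TGF-β1 than with FBS and at least 29.09-fold lower with FBS than in serum-free medium (floor of 3 counts over the FBS libraries, counting error only). Against serum-free medium, KCNA5 was higher with TGF-β1 (log2 fold change 2.39, SE 0.52, edgeR adjusted p = 5.48e-04), but 1 serum-free library, replicate 8 at 2.00 CPM, lay within the TGF-β1 range. The change was 4.41 in library set 1 and 0.92 in library set 2, and the difference between the sets passed the test (edgeR adjusted p = 0.00476). Of the summed FPKM of the 4 Kv1 members, KCNA5 held 66.6% ± 10.9 with TGF-β1, KCNA1 held 86.2% ± 9.54 with FBS and KCNA6 held 95.04% ± 3.95 in serum-free medium (SD, n = 8 each). The sum was 2.10 ± 0.838 FPKM with TGF-β1, 1.06 ± 0.348 FPKM with FBS and 6.92 ± 0.805 FPKM in serum-free medium. KCNA4, the other Kv1 member, stayed at or under 1.17 CPM and had 3 counts in all FBS libraries together.

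**Figure D4:**
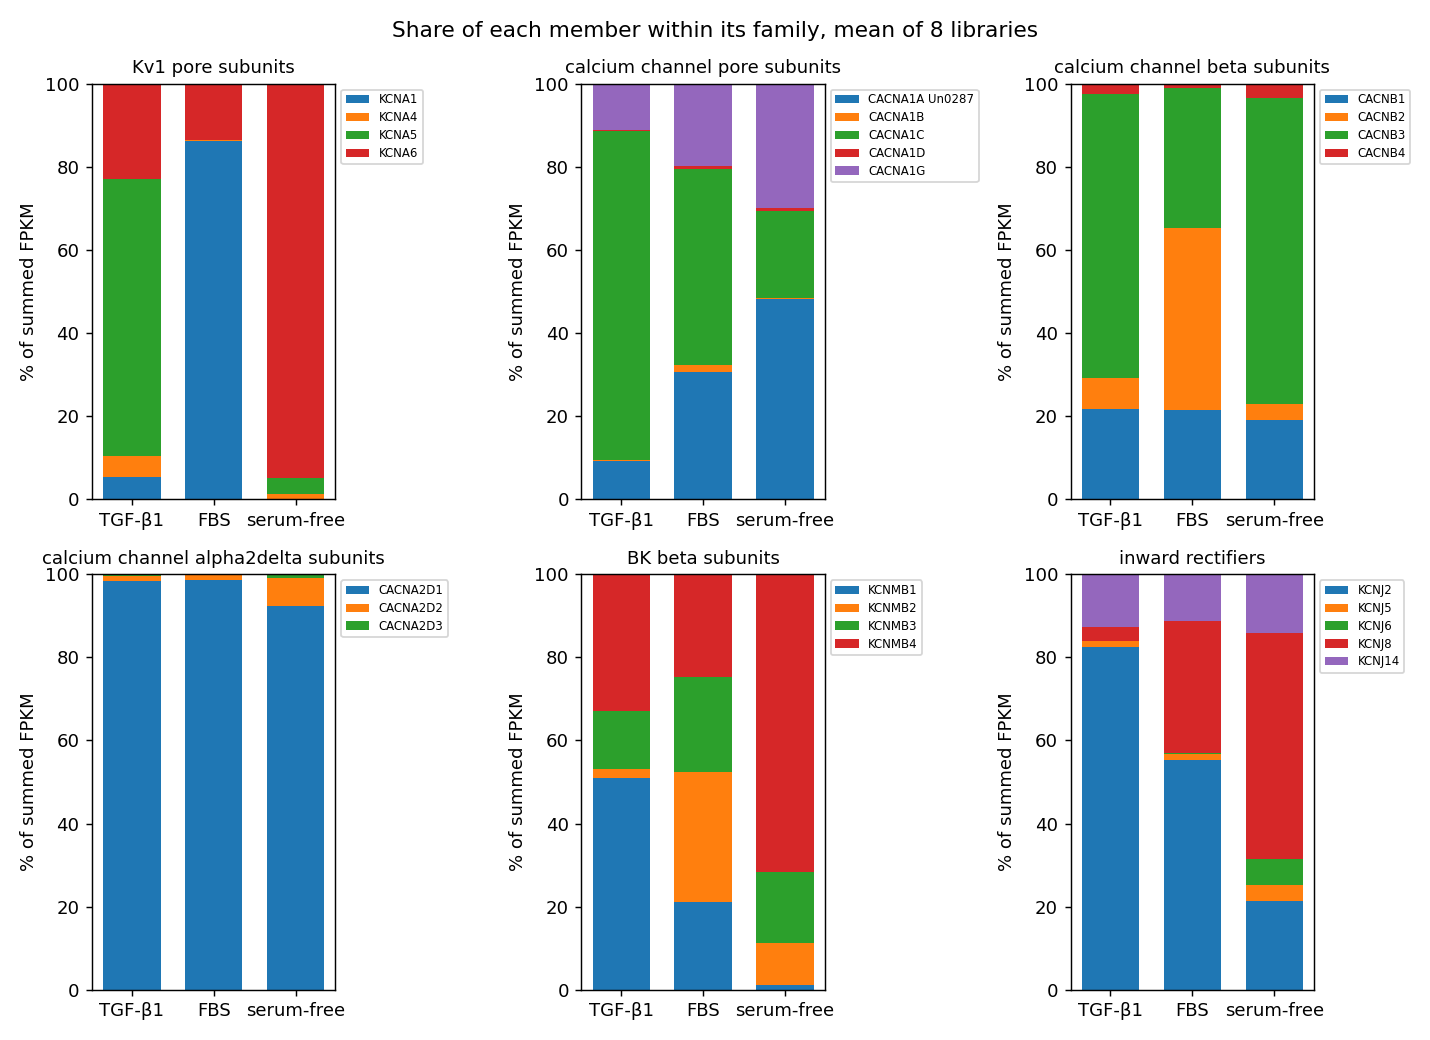
Stacked bars give the mean share of each member in the summed FPKM of its family (8 libraries per condition, percent). In the Kv1 panel KCNA5 holds most with TGF-β1 (66.6%), KCNA1 with FBS (86.2%) and KCNA6 in serum-free medium (95.04%), and CACNB2 is a large part of the calcium channel β subunits with FBS alone (43.6%).

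KCNQ5, a pore of the M-type current that damps excitability, had 1.09, 2.65 and 4.49 CPM with TGF-β1, 0.0767, 0.300 and 1.20 CPM with FBS and 0, 0.113 and 0.470 CPM in serum-free medium. TGF-β1 libraries lay above all serum-free libraries, and it was higher with TGF-β1 (log2 fold change 4.32, SE 0.61, edgeR adjusted p = 8.72e-07). The rise with FBS (log2 fold change 1.64, SE 0.66, edgeR adjusted p = 0.0258) was lost without FBS replicate 7 (1.29, adjusted p = 0.0784), without FBS replicate 8 (1.26, adjusted p = 0.0884) and in library set 1 alone (0.80, adjusted p = 0.384). KCNV1, a silent subunit that forms no channel by itself, had 0, 0.0287 and 0.0730 CPM with TGF-β1, 0.493, 0.898 and 1.34 CPM with FBS and 0.412, 1.02 and 1.82 CPM in serum-free medium. Its TGF-β1 libraries lay below all others, and it was lower with TGF-β1 than in serum-free medium (log2 fold change -4.75, SE 0.48, edgeR adjusted p = 2.82e-09) and than with FBS (log2 fold change -4.58, SE 0.48, edgeR adjusted p = 3.28e-09). The silent subunits KCNG1 and KCNG4 were lower with FBS (-2.82 and -3.88, FBS libraries below all serum-free libraries for each). KCNG1, at medians of 24.4, 4.25 and 31.5 CPM, split by library set with TGF-β1: 0.38 in library set 1 and -1.17 in library set 2 (edgeR adjusted p of the difference = 3.69e-06).

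The auxiliary proteins of voltage-gated potassium channels include calcium-binding KChIPs, which attach to Kv4 pores, and cytoplasmic Kvβ subunits, which attach to Kv1 pores. The KChIP gene KCNIP1 had 0, 0 and 0 CPM with TGF-β1, 0, 0 and 0 CPM with FBS and 0.843, 1.98 and 3.41 CPM in serum-free medium. It had no count in any treated library, which places it at least 80.45-fold lower with TGF-β1 and at least 112.8-fold lower with FBS than in serum-free medium. KCNIP2, at or under 3.05 CPM, was lower with both as well (-2.42 and -3.36), its serum-free libraries above all others. Both KChIP genes reached the membership threshold in serum-free medium only, so the rule set the direction of their changes. The Kv4 pore gene KCND1 was lower in both conditions too (-0.91 with TGF-β1 and -2.03 with FBS), at medians of 0.795, 0.414 and 1.60 CPM, the call with TGF-β1 being absent in library set 2 alone (-0.50, adjusted p = 0.251). Among Kvβ genes, KCNAB1 was lower with TGF-β1 (log2 fold change -1.25, SE 0.17, edgeR adjusted p = 3.70e-07) and with FBS (log2 fold change -3.06, SE 0.18, edgeR adjusted p = 2.12e-14). KCNAB2 was higher with FBS (log2 fold change 1.46, SE 0.15, edgeR adjusted p = 2.23e-09), and its FBS libraries lay above all others at a median of 9.28 CPM. KCNAB2 held 88.6% ± 1.54 of the summed Kvβ FPKM with FBS, against 40.8% ± 9.04 in serum-free medium.

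The large-conductance calcium-activated potassium channel (BK) links calcium to relaxation in smooth muscle, and its pore gene and β1 subunit gene were higher with TGF-β1. The pore gene KCNMA1 had 2.55, 4.58 and 7.28 CPM with TGF-β1, 0, 0.0942 and 0.218 CPM with FBS and 0.0943, 0.562 and 1.65 CPM in serum-free medium. TGF-β1 libraries lay above all others, and FBS libraries were at or near 0. KCNMA1 was higher with TGF-β1 (log2 fold change 2.87, SE 0.40, edgeR adjusted p = 5.92e-07) and lower with FBS (log2 fold change -2.47, SE 0.52, edgeR adjusted p = 1.02e-04), each against serum-free medium. The FBS libraries together held 19 counts, and the fall with FBS was not called on FPKM with a pseudocount of 1 (-0.17, adjusted p = 0.0868). KCNMB1, the smooth muscle β1 subunit that makes the channel more calcium-sensitive, had 6.96, 12.4 and 24.8 CPM with TGF-β1, 0.772, 1.31 and 2.15 CPM with FBS and 0.0568, 0.130 and 0.610 CPM in serum-free medium. No condition overlapped another, and TGF-β1 replicates 1 to 4 stood above replicates 5 to 8. KCNMB1 was higher with TGF-β1 (log2 fold change 6.00, SE 0.42, edgeR adjusted p = 2.66e-12), the highest fitted rise after ANO4 among members with more than 3 counts in each condition. It was also higher with FBS (log2 fold change 2.63, SE 0.44, edgeR adjusted p = 6.38e-06).

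KCNMB4, the β4 subunit best known from neurons, was highest in serum-free medium. It had 6.61, 7.16 and 7.88 CPM with TGF-β1, 0.727, 1.17 and 2.84 CPM with FBS and 9.51, 11.7 and 14.4 CPM in serum-free medium, again with no overlap, and was lower with TGF-β1 (log2 fold change -0.74, SE 0.19, edgeR adjusted p = 0.00170) and with FBS (log2 fold change -3.01, SE 0.21, edgeR adjusted p = 9.75e-13). KCNMB2, the inactivating β2 subunit, had 0.172, 0.414 and 1.04 CPM with TGF-β1, 1.53, 1.91 and 2.78 CPM with FBS and 0.660, 1.86 and 3.60 CPM in serum-free medium. KCNMB2 was lower with TGF-β1 than with FBS (log2 fold change -2.01, SE 0.37, edgeR adjusted p = 2.58e-05), without overlap. Against serum-free medium its change with TGF-β1 was -2.99 in library set 1 and -0.45 in library set 2 (edgeR adjusted p of the difference = 0.00211). With FBS against serum-free medium KCNMB2 did not pass the test over all libraries (0.09, edgeR adjusted p = 0.805). There the sets gave opposite signs, -0.65 in library set 1 and 1.33 in library set 2 (edgeR adjusted p of the difference = 0.00143). Of the summed FPKM of the 4 BK β genes, KCNMB1 held 51.0% ± 15.3 with TGF-β1, 21.1% ± 6.64 with FBS and 1.23% ± 1.18 in serum-free medium, while KCNMB4 held 32.9% ± 8.88, 24.6% ± 9.19 and 71.6% ± 7.88 in the same order. Smooth muscle and pericyte markers, read beside these genes, summed to 411 to 670 CPM with TGF-β1, 273 to 415 CPM with FBS and 291 to 416 CPM in serum-free medium, and fibroblast and myofibroblast markers to 21070 to 34570 CPM, 8201 to 9844 CPM and 6252 to 9565 CPM in the same order. FN1 made up most of this sum with TGF-β1 (21160 ± 3768 CPM, SD, n = 8). Single markers did not all follow the sums. ACTA2, the smooth muscle actin that marks myofibroblasts, averaged 231 ± 125 CPM with TGF-β1, 479 ± 221 CPM with FBS and 2.92 ± 2.10 CPM in serum-free medium (SD, n = 8 each) and was lower with TGF-β1 than with FBS (log2 fold change -1.05, SE 0.37, edgeR adjusted p = 0.0127). VIM (-1.02), MYH11 (-0.50) and SMTN (-1.60) were lower with TGF-β1 than with FBS too. FN1 (4.54), POSTN (5.62), THY1 (0.87) and PDGFRB (1.24) were higher, and TAGLN, CSPG4 and MCAM were not called. In this comparison 3 of 6 tested fibroblast and myofibroblast markers were thus higher and 2 lower. Of 5 tested smooth muscle and pericyte markers, 1 was higher and 2 were lower. The part of these markers in the result was not tested.

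KCNT2, a sodium-activated potassium channel pore, had 4.89, 5.95 and 7.23 CPM with TGF-β1, 9.55, 20.4 and 21.9 CPM with FBS and 1.89, 3.35 and 6.53 CPM in serum-free medium. FBS libraries lay above all others. KCNT2 was higher with FBS (log2 fold change 2.31, SE 0.20, edgeR adjusted p = 4.84e-11) and, with libraries that overlapped, with TGF-β1 (log2 fold change 0.76, SE 0.20, edgeR adjusted p = 0.00168). In library set 2 alone the rise with TGF-β1 was not called (0.67, adjusted p = 0.0917). The small-conductance channel gene KCNN3 was lower with FBS (log2 fold change -2.19, SE 0.22, edgeR adjusted p = 1.09e-09) at medians of 2.56, 0.725 and 3.08 CPM, and did not pass the test with TGF-β1 (-0.25, adjusted p = 0.293). KCNN2, at or under 1.67 CPM, was lower with both (-2.56 and -1.37). KCNN4, the intermediate-conductance channel that other fibroblasts are known to use when they divide, stayed at or under 1.43 CPM and passed the test in no comparison.

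Inward rectifiers, which hold cells near the potassium equilibrium voltage, differed in which gene led. KCNJ2, the strong rectifier Kir2.1, had 23.1, 32.8 and 53.5 CPM with TGF-β1, 15.4, 19.5 and 30.0 CPM with FBS and 1.93, 4.57 and 9.43 CPM in serum-free medium. Libraries of either treated condition lay above all serum-free libraries, and it was higher with TGF-β1 (log2 fold change 2.87, SE 0.28, edgeR adjusted p = 1.23e-09) and with FBS (log2 fold change 2.12, SE 0.27, edgeR adjusted p = 8.54e-08). The rise with FBS was 1.32 in library set 1 and 3.20 in library set 2, a difference that passed the test (edgeR adjusted p = 7.58e-06). KCNJ8, the pore Kir6.1 of ATP-sensitive channels in vessels and pericytes, had 0.172, 0.456 and 1.35 CPM with TGF-β1, 1.58, 5.16 and 13.3 CPM with FBS and 4.15, 4.61 and 6.59 CPM in serum-free medium. TGF-β1 libraries lay below all others, and it was lower with TGF-β1 than in serum-free medium (log2 fold change -3.26, SE 0.48, edgeR adjusted p = 1.37e-06) and than with FBS (log2 fold change -3.56, SE 0.47, edgeR adjusted p = 2.06e-07). With FBS against serum-free medium it did not pass the test (0.30, adjusted p = 0.480), but the sets gave opposite signs, -1.25 in library set 1 and 0.95 in library set 2 (edgeR adjusted p of the difference = 3.03e-05). KCNJ6, a G-protein-gated rectifier, had 0, 0 and 0.286 CPM with TGF-β1, 0, 0.0920 and 0.247 CPM with FBS and 0.731, 1.83 and 3.80 CPM in serum-free medium, with every serum-free library above all others. KCNJ6 was lower with TGF-β1 (log2 fold change -4.74, SE 0.60, edgeR adjusted p = 1.46e-07) and with FBS (log2 fold change -4.14, SE 0.53, edgeR adjusted p = 8.35e-08). It had no count in TGF-β1 replicates 1 to 4. KCNJ6 reached the membership threshold in serum-free medium only, so the rule set the direction of its changes. KCNJ2 held 82.6% ± 9.59 of the summed rectifier FPKM with TGF-β1, 55.4% ± 12.5 with FBS and 21.4% ± 10.1 in serum-free medium. For KCNJ8 these shares were 3.39% ± 3.01, 31.9% ± 16.8 and 54.3% ± 7.23.

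Two-pore-domain channels carry the background potassium leak. KCNK1 had 9.88, 14.2 and 14.9 CPM with TGF-β1, 2.12, 3.31 and 4.69 CPM with FBS and 10.2, 13.6 and 14.5 CPM in serum-free medium. FBS libraries lay below all others, while TGF-β1 and serum-free libraries overlapped. It was lower with FBS (log2 fold change -1.96, SE 0.14, edgeR adjusted p = 6.43e-13) and did not pass the test with TGF-β1 (0.05, adjusted p = 0.738). KCNK5, an alkaline-activated leak channel, had 1.29, 4.71 and 8.23 CPM with TGF-β1, 2.84, 4.21 and 6.28 CPM with FBS and 12.4, 16.4 and 18.8 CPM in serum-free medium, with every serum-free library above all others. KCNK5 was lower with TGF-β1 (log2 fold change -1.80, SE 0.28, edgeR adjusted p = 4.48e-06) and with FBS (log2 fold change -1.83, SE 0.28, edgeR adjusted p = 1.55e-06). The change with TGF-β1 was -2.89 in library set 1 and -1.23 in library set 2 (edgeR adjusted p of the difference = 7.47e-04). KCNK6 was lower with FBS (-0.75) and, by less, with TGF-β1 (-0.36), with overlap in both comparisons. The call with TGF-β1 was lost without serum-free replicate 4, 5, 6 or 8 and without TGF-β1 replicate 2, 3 or 4 (-0.34 to -0.29). KCNK12, a silent member of the family, had 0, 0.115 and 0.390 CPM with TGF-β1, 0.671, 1.18 and 2.01 CPM with FBS and 0, 0.260 and 1.41 CPM in serum-free medium and was lower with TGF-β1 than with FBS (log2 fold change -3.04, SE 0.62, edgeR adjusted p = 1.00e-04), without overlap. It was higher with FBS than in serum-free medium (log2 fold change 1.60, SE 0.53, edgeR adjusted p = 0.00786), where libraries overlapped, but not in library set 1 alone (0.58, adjusted p = 0.416). KCNK12 reached the membership threshold with FBS only, so the rule set the direction of these changes. Of HCN channels, which pass the pacemaker current, HCN3 was lower with TGF-β1 (-0.98) and with FBS (-2.14) at medians of 2.13, 0.844 and 3.51 CPM.

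TRP channels are nonselective cation channels gated by lipids, temperature and receptors. TRPM7, a channel with its own kinase domain that carries magnesium and calcium, had 129, 144 and 189 CPM with TGF-β1, 56.8, 94.7 and 114 CPM with FBS and 88.3, 105 and 121 CPM in serum-free medium. TGF-β1 libraries lay above all others. TRPM7 was higher with TGF-β1 than in serum-free medium (log2 fold change 0.52, SE 0.12, edgeR adjusted p = 4.78e-04) and than with FBS (log2 fold change 0.68, SE 0.12, edgeR adjusted p = 1.19e-05). With FBS against serum-free medium it did not pass the test (-0.17, adjusted p = 0.197), while a fit with the replicate number as a block called it lower (-0.19, adjusted p = 0.0273). TRPM8, the cold and menthol receptor of sensory neurons, had 2.08, 4.13 and 5.30 CPM with TGF-β1, 0.0428, 0.288 and 0.550 CPM with FBS and 0.118, 0.442 and 0.787 CPM in serum-free medium. TGF-β1 libraries stood above the rest, and it was higher with TGF-β1 than in serum-free medium (log2 fold change 3.06, SE 0.35, edgeR adjusted p = 2.21e-08) and than with FBS (log2 fold change 3.73, SE 0.36, edgeR adjusted p = 6.58e-10). TRPM8 reached the membership threshold with TGF-β1 only, so the rule set the direction of these changes. Of the 3 tested neuronal markers, SYN1 was higher with TGF-β1 than in serum-free medium (1.63, edgeR adjusted p = 0.00220). RBFOX3 (0.46) and TUBB3 (-0.975) did not pass the test there. With TGF-β1 against FBS, RBFOX3 was higher (2.68, edgeR adjusted p = 1.91e-10). SYN1 (-0.98, edgeR adjusted p = 0.0206) and TUBB3 (-5.42, edgeR adjusted p = 3.29e-12) were lower in that comparison. SNAP25, SYT1 and STMN2 had no count with TGF-β1. The part of neuronal markers in the TRPM8 result was not tested. TRPM3, a heat and steroid receptor, had 0.567, 1.05 and 1.37 CPM with TGF-β1, 0.118, 0.334 and 0.819 CPM with FBS and 4.67, 13.8 and 29.1 CPM in serum-free medium. Serum-free libraries lay above all others, and it was lower with TGF-β1 (log2 fold change -3.83, SE 0.36, edgeR adjusted p = 7.85e-10) and with FBS (log2 fold change -5.35, SE 0.40, edgeR adjusted p = 2.76e-12). With FBS the change was -6.48 in library set 1 and -3.90 in library set 2 (edgeR adjusted p of the difference = 9.56e-04).

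TRPC6, a channel opened by diacylglycerol that is known to act in myofibroblast formation in other tissues, had 4.30, 9.92 and 14.3 CPM with TGF-β1, 9.31, 10.7 and 11.7 CPM with FBS and 15.5, 18.3 and 24.1 CPM in serum-free medium. Serum-free libraries lay above all others, and it was lower with TGF-β1 (log2 fold change -1.02, SE 0.19, edgeR adjusted p = 4.42e-05) and with FBS (log2 fold change -0.85, SE 0.19, edgeR adjusted p = 1.99e-04). The change with TGF-β1 was -1.79 in library set 1 and -0.45 in library set 2 (edgeR adjusted p of the difference = 9.13e-05). TRPC1, its receptor-operated relative, was lower with FBS (log2 fold change -1.22, SE 0.12, edgeR adjusted p = 2.73e-10), with FBS libraries below all others at a median of 9.84 CPM. With TGF-β1 it did not pass the test (0.04, adjusted p = 0.787). TRPV4, a channel sensitive to cell swelling and warmth, had 0.146, 0.607 and 0.930 CPM with TGF-β1, 0.197, 0.438 and 1.65 CPM with FBS and 0, 0.297 and 1.12 CPM in serum-free medium. It passed the test in no comparison over all libraries. With FBS against serum-free medium its change differed between the library sets (edgeR adjusted p of the difference = 0.012). In library set 2 alone it was called higher than in serum-free medium with FBS (2.15, edgeR adjusted p = 0.00316) and with TGF-β1 (1.65, edgeR adjusted p = 0.0305). Without serum-free replicate 1 the rise with FBS was called (1.24, edgeR adjusted p = 0.0272). TRPV4 reached the membership threshold with FBS only, so the rule set the direction of that rise. TRPV2 stayed between 6.09 and 16.1 CPM in all libraries and passed in none, although the block fit called it higher with TGF-β1 than with FBS (0.34, adjusted p = 0.0260). TRPC4AP, the adaptor, had 236, 254 and 265 CPM with TGF-β1, 164, 172 and 188 CPM with FBS and 230.3, 243 and 250.2 CPM in serum-free medium. FBS libraries lay below all others, and it was lower with FBS (log2 fold change -0.46, SE 0.05, edgeR adjusted p = 6.87e-09).

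PIEZO2, a stretch-activated channel of touch-sensing cells, had 7.65, 11.1 and 15.0 CPM with TGF-β1, 1.24, 2.60 and 3.55 CPM with FBS and 6.02, 14.4 and 28.1 CPM in serum-free medium. FBS libraries lay below all others. PIEZO2 was lower with FBS than in serum-free medium (log2 fold change -2.63, SE 0.32, edgeR adjusted p = 2.48e-08), and higher with TGF-β1 than with FBS (log2 fold change 2.14, SE 0.31, edgeR adjusted p = 9.37e-07). Serum-free libraries fell into a high group, replicates 1 to 4, and a low group, replicates 5 to 8, which is the split of the library numbers. The change with TGF-β1 against serum-free medium, which did not pass the test over all libraries (-0.49, adjusted p = 0.146), was -1.12 in library set 1 and 0.65 in library set 2 (edgeR adjusted p of the difference = 1.70e-04).

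CLC proteins are chloride channels of the surface membrane or chloride-proton exchangers of endosomes and lysosomes. CLCN2, the surface channel, was lower with TGF-β1 (log2 fold change -1.28, SE 0.12, edgeR adjusted p = 7.02e-10) and with FBS (log2 fold change -1.75, SE 0.12, edgeR adjusted p = 5.74e-13), with every serum-free library above all others at a median of 28.8 CPM. The endosomal exchanger CLCN3 had 42.2, 53.6 and 59.5 CPM with TGF-β1, 34.1, 55.1 and 66.5 CPM with FBS and 28.1, 31.0 and 38.1 CPM in serum-free medium. CLCN3 was higher with TGF-β1, without overlap (log2 fold change 0.70, SE 0.12, edgeR adjusted p = 1.19e-05), and with FBS, with overlap (log2 fold change 0.66, SE 0.12, edgeR adjusted p = 1.42e-05), each against serum-free medium. The related CLCN5 was higher with both (0.63 and 0.97), without overlap. CLCN6 had 57.0, 65.9 and 81.2 CPM with TGF-β1, 23.1, 28.9 and 31.9 CPM with FBS and 39.8, 49.0 and 56.7 CPM in serum-free medium. No condition overlapped another, and it was higher with TGF-β1 (log2 fold change 0.45, SE 0.09, edgeR adjusted p = 1.15e-04) and lower with FBS (log2 fold change -0.80, SE 0.09, edgeR adjusted p = 1.09e-08), each against serum-free medium.

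Anoctamins are calcium-activated chloride channels and lipid scramblases. ANO6, which exposes phosphatidylserine, had 182, 197 and 208 CPM with TGF-β1, 346, 415 and 458 CPM with FBS and 131, 137 and 143 CPM in serum-free medium. No condition overlapped another, with FBS libraries highest and serum-free libraries lowest. It was higher with TGF-β1 (log2 fold change 0.52, SE 0.06, edgeR adjusted p = 9.07e-08) and with FBS (log2 fold change 1.58, SE 0.07, edgeR adjusted p = 1.00e-17), and lower with TGF-β1 than with FBS (log2 fold change -1.07, SE 0.06, edgeR adjusted p = 4.32e-14). ANO2, a chloride channel of olfactory and retinal neurons, had 0.402, 0.568 and 1.09 CPM with TGF-β1, 0.537, 0.691 and 1.14 CPM with FBS and 11.3, 16.8 and 20.9 CPM in serum-free medium. Every serum-free library lay above all others, and it was lower with TGF-β1 (log2 fold change -4.64, SE 0.22, edgeR adjusted p = 8.37e-16) and with FBS (log2 fold change -4.40, SE 0.21, edgeR adjusted p = 2.24e-16). ANO4 had 2.21, 7.62 and 14.0 CPM with TGF-β1, 0.0515, 0.211 and 0.513 CPM with FBS and 0, 0 and 0.156 CPM in serum-free medium. TGF-β1 libraries lay above all others, and replicates 1 to 4 of that condition were the highest. ANO4 was higher with TGF-β1 than in serum-free medium (log2 fold change 7.21, SE 0.63, edgeR adjusted p = 1.65e-10) and than with FBS (log2 fold change 4.89, SE 0.49, edgeR adjusted p = 1.54e-09). Its FBS and serum-free levels were near the limit of counting. ANO4 reached the membership threshold with TGF-β1 only, so the rule set the direction of these changes. ANO10 was higher with FBS (0.41, adjusted p = 2.96e-06), a small change without overlap, at medians of 46.7, 59.2 and 44.4 CPM.

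Values that differed between the library sets were not rare among all genes. The set-by-treatment term passed the test for 8 of 77 tested members with TGF-β1 against serum-free medium (10.3% of all genes), for 15 with FBS against serum-free medium (22.4%) and for 19 with TGF-β1 against FBS (23.9%). For SCN3B, the gap between TGF-β1 and FBS was 6.28 in library set 1 and 5.27 in library set 2 (edgeR adjusted p of the difference = 0.00505), so the direction was shared. Likewise KCNMB1 was higher with TGF-β1 than with FBS by 3.82 in library set 1 and 2.53 in library set 2 (edgeR adjusted p of the difference = 0.00822). For SCN9A the change with TGF-β1 against serum-free medium was -3.31 in library set 1 and -3.67 in library set 2, and the test of the difference was not passed (edgeR adjusted p = 0.322).

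Other genes of ion transport were read from lists whose membership was fixed by function. Over all tested genes, 31.2% were higher and 33.1% lower with TGF-β1 and 39.5% were higher and 40.5% lower with FBS, each against serum-free medium, and 36.9% were higher and 36.4% lower with TGF-β1 against FBS. Of 21 tested ion pumps and exchangers, 9 were higher (42.9%) and 8 lower (38.1%) with TGF-β1 and 8 were higher (38.1%) and 11 lower (52.4%) with FBS, each against serum-free medium. With TGF-β1 against FBS, 13 were higher (61.9%) and 4 lower (19.0%). FXYD5, a regulator of the sodium pump, averaged 256 ± 53.0 CPM with TGF-β1 and 1.94 ± 1.20 CPM in serum-free medium (SD, n = 8 each; log2 fold change 7.03, SE 0.34, edgeR adjusted p = 1.59e-15). Of 20 genes of intracellular calcium release and store-operated entry, 10 were higher (50%) and 4 lower (20%) with TGF-β1 and 4 were higher (20%) and 12 lower (60%) with FBS against serum-free medium. With TGF-β1 against FBS, 11 were higher (55%) and 2 lower (10%). ITPR1, a calcium release channel of the endoplasmic reticulum, averaged 280.4 ± 24.4 CPM with TGF-β1 and 57.6 ± 10.7 CPM with FBS (SD, n = 8 each; log2 fold change 2.28, SE 0.10, edgeR adjusted p = 1.53e-16). PKD1, a large membrane protein that pairs with TRP-type polycystins, averaged 703 ± 67.0 CPM with TGF-β1 and 165 ± 41.2 CPM in serum-free medium (SD, n = 8 each; log2 fold change 2.09, SE 0.17, edgeR adjusted p = 5.67e-11). MCU, the pore of the mitochondrial calcium uniporter, averaged 130.2 ± 19.3 CPM with FBS and 23.6 ± 5.20 CPM in serum-free medium (SD, n = 8 each; log2 fold change 2.46, SE 0.12, edgeR adjusted p = 8.84e-16).

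Of 31 tested channels outside the name pattern, 12 were higher (38.7%) and 11 lower (35.5%) with TGF-β1 and 12 were higher (38.7%) and 15 lower (48.4%) with FBS against serum-free medium. With TGF-β1 against FBS, 16 were higher (51.6%) and 10 lower (32.3%). P2RX7, an ATP-gated cation channel, averaged 0.615 ± 0.360 CPM with TGF-β1 and 7.20 ± 1.10 CPM in serum-free medium (SD, n = 8 each; log2 fold change -3.52, SE 0.33, edgeR adjusted p = 7.32e-10). LRRC8B, a subunit of volume-regulated anion channels, averaged 70.3 ± 8.71 CPM with TGF-β1 and 7.60 ± 2.38 CPM in serum-free medium (SD, n = 8 each; log2 fold change 3.21, SE 0.19, edgeR adjusted p = 6.45e-14). Of 28 channel partners and genes of calcineurin signalling, 10 were higher (35.7%) and 10 lower (35.7%) with TGF-β1 and 8 were higher (28.6%) and 12 lower (42.9%) with FBS against serum-free medium. With TGF-β1 against FBS, 15 were higher (53.6%) and 8 lower (28.6%). GEM, a small GTPase that binds calcium channel β subunits and blocks the current, averaged 22.0 ± 7.93 CPM with TGF-β1 and 4.07 ± 1.43 CPM in serum-free medium (SD, n = 8 each; log2 fold change 2.44, SE 0.23, edgeR adjusted p = 9.23e-10). RCAN1, an inhibitor of calcineurin whose gene is known to answer to it, averaged 226 ± 64.3 CPM with TGF-β1 and 18.0 ± 1.97 CPM with FBS (SD, n = 8 each; log2 fold change 3.65, SE 0.14, edgeR adjusted p = 5.63e-18). NFATC2, a transcription factor that calcineurin activates, averaged 1.67 ± 0.598 CPM with FBS and 39.3 ± 4.13 CPM in serum-free medium (SD, n = 8 each; log2 fold change -4.55, SE 0.18, edgeR adjusted p = 6.92e-18).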

How the data were processed

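Bulk RNA sequencing of 24 libraries was analysed, 8 per condition. The deposited count table holds a whole-number count for each gene in each library, which is not normalized, per the file headers. The deposited FPKM table gives the same values per unit of gene length and per library size, where the authors scaled that size for each library. FPKM was used for levels between genes and as an alternative. Aligner, counter, strand setting, annotation and genome build are not stated in any source used here. The labels' protocols name a column kit for total RNA and a company that made the libraries.

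The members and all lists were chosen with earlier results of these data known. Tests on the counts used edgeR 4.0.16 (R 4.3.3) with filterByExpr by condition (13308 genes), TMM sizes, 1 coefficient per condition over all 24 libraries, quasi-likelihood F-tests, and Benjamini-Hochberg adjustment over all genes tested, with 0.05 as the threshold. The SE is the absolute log2 fold change divided by the square root of F. CPM in the text uses TMM sizes, except in the membership rule. A set-by-treatment term tested differences between library sets. Alternatives used DESeq2 1.42.0 and limma 3.58.1 (FPKM with pseudocounts of 0.1 and 1). Intervals at 95% and the floor of 3 counts cover counting error only.

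Given with the values of every condition were, per comparison, the 5 largest rises and falls among called members at 1 CPM or more whose libraries did not overlap, the 6 members with the highest FPKM, and PIEZO2, TRPV4, TRPC6, TRPM7, KCNMA1, KCNJ8, CACNA1C, CLCN3 and ANO6. Some genes that enter the counts are not reported here by name, nor shown in the figures. Any other member was named after its values were seen. Of 86 members, 21 overlap another gene in the table and 19 lie on unplaced scaffolds. Without a stated strand setting, reads of overlapping genes cannot be told apart. On simulated counts for TGF-β1 against serum-free medium (13172 genes), the test recovered 77.8% of genes changed 2-fold and 98.9% of genes changed 4-fold, and 3.39% of its calls were false. The simulation changed only 99 genes 2-fold and 95 genes 4-fold, in independent libraries without library sets. In the data 64.3% of genes were called in this comparison and the sets stood apart, so these rates need not hold there.

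Replicate numbers are shared between conditions in the labels. Same-numbered libraries deviated together from their condition means, with correlations of 0.177 to 0.362 for TGF-β1 and serum-free medium, 0.115 to 0.429 for FBS and serum-free medium and 0.103 to 0.332 for TGF-β1 and FBS. Every such correlation was over 0.1, so the numbers were treated as pairs in an alternative fit. Libraries with different numbers correlated at -0.381 to 0.441, -0.381 to 0.414 and -0.362 to 0.335 in these comparisons, and 6, 7 and 6 of 16 libraries correlated best with their own number, so the pairing is a hint from the data and not a stated design.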

Additional observations from a re-analysis of the deposited data

Results flagged for a closer look

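Among 99 groups of 8 libraries (34 named members in 3 conditions, without groups that held no counts), 7 held a library that stood far from the others by Dixon's test, where chance gives about 1 in 20. KCNA5 in serum-free replicate 8 had 2.00 CPM, the next library 0.731 CPM. KCNA6 in TGF-β1 replicate 1 had 5.33 CPM, the next 3.03 CPM. KCNJ8 in TGF-β1 replicate 5 had 1.35 CPM, the next 0.584 CPM. TRPM7 in TGF-β1 replicate 2 had 189 CPM, the next 151 CPM. KCNK12 in serum-free replicate 3 had 1.41 CPM, the next 0.588 CPM, and TRPV4 in serum-free replicate 1 had 1.12 CPM, the next 0.47 CPM. KCNA1 in serum-free replicate 4 had 0.061 CPM, which is 1 count, with 0 in the other 7 libraries.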

How the results depend on the processing

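Over 38 alternatives, the counts of called members stayed within 1.5 times the reported ones in every comparison and direction. Leaving out 1 library at a time gave 18 to 20 higher and 30 to 34 lower members with TGF-β1 against serum-free medium, 14 to 17 and 44 to 46 with FBS against serum-free medium, and 38 to 40 and 15 to 18 with TGF-β1 against FBS. Of 52, 60 and 56 called members in these comparisons, 41, 55 and 39 stayed called in every alternative that could be fitted, and none of the called ones reversed. Calls lost at least once were ANO5, KCNA1, KCNA5, KCND1, KCNIP4, KCNJ14, KCNK13, KCNK6, KCNMB2, KCNRG and KCNT2 with TGF-β1, and ANO4, KCND3, KCNK12, KCNMA1 and KCNQ5 with FBS, each against serum-free medium. The pairing by replicate number (the replicate block) lost 3 calls (KCNJ14 with TGF-β1 and KCND3 with FBS against serum-free medium, KCNK13 with TGF-β1 against FBS) and gained 5 (CACNB3 and CACNB4 with TGF-β1 and TRPM7 with FBS against serum-free medium, KCNIP4 and TRPV2 with TGF-β1 against FBS), and changed no other call. DESeq2 lost none and gained 1. Total library size moved the median of all genes to -0.17 with TGF-β1 and 0.21 with FBS against serum-free medium and to -0.39 with TGF-β1 against FBS, and lost 12 calls and gained 9. Summing neighbouring libraries in pairs, chosen after the data were seen, lost 13 and gained 1. A membership threshold of 0.25 CPM would give 98 members and one of 1 CPM 71.

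The following log2 fold changes, none of them called over all libraries, turned their sign, and the cause was not tested. KCNJ8 with FBS against serum-free medium was -0.14 and -0.004 on FPKM with pseudocounts of 0.1 and 1, -1.25 in library set 1, -0.066 with the set as a covariate, -0.09 with the replicate block and -0.28 without FBS replicates 5 and 6. In the same comparison KCNMB2 was called lower in library set 1 alone (-0.65, edgeR adjusted p = 0.0430) and higher in library set 2 alone (1.33, edgeR adjusted p = 0.0020). It ran from -0.028 to 0.30 with 1 library left out. KCNV1 was 0.16 in library set 2 and 0.10 with total library size, and ran from -0.28 to 0.002. TRPM7 was 0.10 with total library size and 0.002 without FBS replicates 5 and 6. With TGF-β1 against FBS, CLCN3 was -0.26 in library set 1, -0.36 with total library size and -0.12 without FBS replicates 5 and 6, and ran from -0.03 to 0.10 with 1 library left out. TRPV4 was 0.31 without FBS replicates 5 and 6 and ran from -0.39 to 0.11. In library set 2, KCNJ6 was 0.26 and TRPC6 was 0.31. With TGF-β1 against serum-free medium, PIEZO2 was 0.65 in library set 2 and TRPC4AP -0.069 with total library size. Depth limits levels under 3 counts in 1 library (0.115 to 0.219 CPM), which cannot be told from 0 in that library.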

Other observations

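Beside the members, 8 genes listed only by number reached 0.5 CPM in a condition and carry a description that names a channel of these families. LOC103345403, described as KCNU1, a potassium channel known from sperm, had 0.354, 0.979 and 1.43 CPM with TGF-β1, 0.0785, 0.585 and 1.09 CPM with FBS and 1.84, 2.54 and 3.20 CPM in serum-free medium, and was lower with TGF-β1 (log2 fold change -1.39, SE 0.29, edgeR adjusted p = 1.72e-04) and with FBS (log2 fold change -2.08, SE 0.30, edgeR adjusted p = 4.39e-07). LOC103346165, described as ANO5, had 1.77, 3.30 and 4.82 CPM with TGF-β1, 4.53, 6.31 and 7.50 CPM with FBS and 2.50, 3.07 and 3.75 CPM in serum-free medium and was higher with FBS (log2 fold change 0.96, SE 0.18, edgeR adjusted p = 3.52e-05), whereas the member named ANO5 was lower with FBS (log2 fold change -1.55, SE 0.39, edgeR adjusted p = 7.44e-04). No source used here says how the numbered gene relates to the named one.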
